A study of Mus musculus with 69 samples.

Results

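The suppressor of cytokine signalling (SOCS) family in mouse consists of Cish and Socs1 to Socs7, and all 8 genes were found by symbol among the 24537 genes listed in each of 3 expression tables and the 24527 listed in each of 2 allele tables. The cells were bone marrow-derived macrophages (BMDMs), grown, per the labels, for 7 days with M-CSF from the marrow of female mice aged 8 to 12 weeks, and mRNA was measured by RNA-seq of poly(A) RNA. In the 5-strain table, BMDMs came from the common laboratory strains C57BL/6J (C57), BALB/cJ (BALB) and NOD/ShiLtJ (NOD) and from the wild-derived strains PWK/PhJ (PWK) and, of the species Mus spretus, SPRET/EiJ (SPRET), and were left untreated (basal) or given mouse IL-4 at 20 ng/ml for 24 h, with 3 libraries per group and 2 for basal PWK. In the time-course table, C57 and SPRET BMDMs were sampled at basal and after 1, 6 and 24 h of IL-4, with 2 libraries per group. In the Egr2 table, BMDMs homozygous for the floxed Egr2 allele (Egr2 fl/fl, Egr2WT) and BMDMs that also carried LyzM-Cre (Egr2MKO) were sampled at the same 4 times, with 2 libraries per group. LyzM-Cre is active across the myeloid lineage, Egr2WT cells carry no Cre, and the floxed allele is shared by both groups. F1 BMDMs of C57 crossed with SPRET or with NOD gave values for each parental allele in 2 basal and 2 IL-4 libraries per cross.

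Suppressors of cytokine signalling are intracellular brakes that cytokines switch on through JAK kinases and STAT transcription factors. IL-4 binds IL4RA paired with the common gamma chain or IL13RA1 and activates STAT6, and SOCS proteins induced by such signals then dampen the receptor that induced them. Each member has an SH2 domain, which binds phosphotyrosine, and a SOCS box, which binds elongins B and C and CUL5 and so recruits a ubiquitin ligase. CIS (the product of Cish) and SOCS2 occupy receptor phosphotyrosines, SOCS1 and SOCS3 also block JAK catalytic activity directly, SOCS4 and SOCS5 are best known for lowering EGF receptor signalling, and SOCS6 and SOCS7 bind insulin receptor and KIT pathway proteins.

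On mm10, as the files give them, Cish lay on chromosome 9 at 107296659 to 107302784 on the plus strand, Socs1 on chromosome 16 at 10783809 to 10785536 on the minus strand, Socs2 on chromosome 10 at 95411490 to 95416857 on the minus strand and Socs3 on chromosome 11 at 117966087 to 117969366 on the minus strand. Socs4 lay on chromosome 14 at 47277143 to 47291591, Socs5 on chromosome 17 at 87107679 to 87137588 and Socs7 on chromosome 11 at 97362551 to 97398542, all on the plus strand. In GENCODE vM21, the Cish locus, alone among those named here, was overlapped by other genes, Gm17040 over 534 bases and Gm17041 over 1459 bases, both on the opposite strand. Whether reads were counted by strand is not given in the sources used here, so reads from Cish and from these genes might not be told apart.

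Promoter windows of 250 bases before to 50 bases after the RefSeq start (GRCm38.p6) were at hand for 4 of the 8 genes, Cish, Socs1, Socs3 and Socs4. They were searched on both strands for the STAT motif TTCNNNGAA, for its longer-spaced form that STAT6 prefers, TTC and GAA with 4 bases between them, for the Egr motif GCGNGGGCG, and for an IRF-type repeat of GAAA with 2 bases between its copies, which was added after the windows were seen. Cish held 2 matches to TTCNNNGAA, at bases 1 and 12 of the transcript. Socs3 held 1, which began 154 bases before the start, and Socs1 held none but had 2 overlapping GAAA repeats beginning 83 and 77 bases before the start. The sequences below are shown because these 3 genes, with Socs2, carried the strongest IL-4 responses or strain differences described later; capitals mark the motif matches and each runs 5′ to 3′ on the strand of its gene.
Cish, chr9:107296654-107296683, plus strand, from 5 bases before the start to base 25 of the first exon (5′ UTR): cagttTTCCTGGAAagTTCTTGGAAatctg
Socs1, chr16:10785597-10785626, minus strand, from bases -90 to -61 relative to the start: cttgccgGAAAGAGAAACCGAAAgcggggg
Socs3, chr11:117969502-117969531, minus strand, from bases -165 to -136 relative to the start and inside a longer Socs3 transcript in GENCODE: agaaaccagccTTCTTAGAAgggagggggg

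Of 32851 windows of the same length, 8.30% held TTCNNNGAA, 6.95% its longer-spaced form, 5.55% the Egr motif and 3.44% the GAAA repeat. The longer-spaced form was in none of the 4 windows, and the Egr motif was found once each in Socs3 and Socs4. These matches describe letters in a window and not bound sites.

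The libraries held 7.02 to 22.5 M tags (M, 1000000) in the 5-strain table, 5.70 to 24.0 M in the time course and 4.69 to 32.9 M in the Egr2 table. Levels are in transcripts per 1000000 (TPM), which are scaled for transcript length, and differences are on the log2(TPM + 1) scale, given with their standard error (SE). A gene passed at an adjusted p under 0.05 from limma, corrected by the Benjamini-Hochberg method over the 11907, 12088 and 12079 genes tested in the 3 tables. All 8 members reached the floor of 1 TPM in 2 libraries in each table. The labels do not say whether replicates came from separate mice, so p-values measure the spread between libraries. In bulk RNA, fewer cells of a type and less RNA per cell cannot be told apart. Macrophage markers summed to between 9344 and 53850 TPM, and markers of T cells, B cells, fibroblasts and erythroid cells to between 0 and 6.60 TPM. The tables hold different libraries, and each test stayed within a table.

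**Figure D1:**
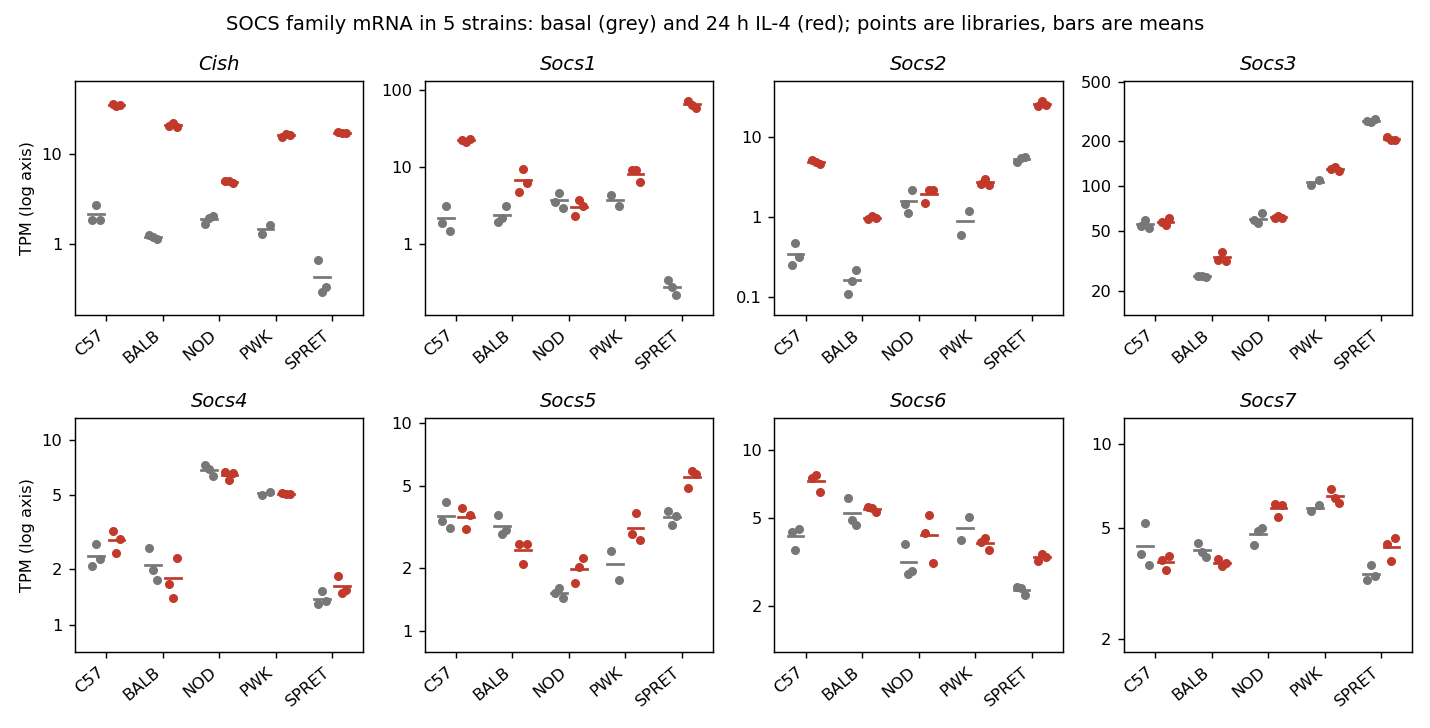
Level of each SOCS family gene in the 5-strain table, in TPM on log axes, by strain, at basal (grey) and after 24 h of IL-4 (red), where points are libraries and bars are group means. Cish after IL-4 lies above basal in every strain, from 4.76 TPM in NOD to 36.2 TPM in C57, whereas Socs1 in NOD overlaps its basal range.

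The 24 h comparison asked how strongly IL-4 raised each member in 5 strains. Cish was the member that rose in every strain, Socs1 and Socs2 rose in 4 of 5, and Socs4 did not pass in any. In C57, 4 of 8 members passed, all upward, against 35.5% of all genes tested. In BALB, 4 passed upward (34.2% of all genes), in NOD 3 upward (34.3%), in PWK 5 upward (24.7%), and in SPRET 6 upward and 1 downward (44.4%). The median difference over the 8 members was 0.45 for C57, where that over all genes was -0.04. It was 0.23 for BALB (-0.11 over all genes), 0.22 for NOD (0.12), 0.35 for PWK (0.08) and 0.44 for SPRET (0.11).

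Cish, whose product competes with STATs for receptor docking sites, stood at 1.86, 2.75 and 1.87 TPM in the basal C57 libraries and at 36.2, 34.1 and 35.6 TPM after IL-4. It went from 1.25, 1.20 and 1.15 to 20.6, 22.3 and 20.1 TPM in BALB, and from 1.298 and 1.62 to 15.6, 16.6 and 16.4 TPM in PWK. It went from 0.671, 0.293 and 0.330 to 17.8, 17.2 and 17.2 TPM in SPRET, and only from 1.67, 1.97 and 2.04 to 4.97, 5.08 and 4.76 TPM in NOD. The basal and IL-4 libraries did not overlap in any of the 5 strains. The log2 differences were 3.53 ± 0.09 (SE) in C57, 3.32 ± 0.09 in BALB, 2.81 ± 0.11 in PWK, 3.69 ± 0.09 in SPRET and 1.04 ± 0.09 in NOD, with a limma adjusted p of 6.86e-09 or lower in each. As ratios of mean TPM these were 16.3, 17.6, 11.1, 40.3 and 2.61. After IL-4 the order from the lowest mean was NOD, PWK, SPRET, BALB and C57, and neighbouring strains did not overlap in their 3 libraries, although PWK and SPRET were close, at 16.2 ± 0.55 and 17.4 ± 0.32 TPM (SD, n = 3).

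Socs1, which encodes the direct JAK inhibitor best known for limiting interferon and IL-4 signalling, separated the strains more widely. In SPRET it was nearly silent at basal, at 0.342, 0.280 and 0.216 TPM, and reached 73.6, 64.8 and 59.0 TPM. In C57 it went from 1.88, 3.16 and 1.47 to 22.4, 21.4 and 23.2 TPM. In NOD it stood at 3.57, 4.59 and 2.97 TPM at basal and at 2.33, 3.75 and 3.15 TPM after IL-4, and these ranges overlapped. The log2 differences were 5.70 ± 0.20 in SPRET (adjusted p = 7.84e-18), 2.91 ± 0.20 in C57 (8.72e-12), 1.18 ± 0.20 in BALB (6.06e-05), 0.95 ± 0.22 in PWK (0.00237) and -0.21 ± 0.20 in NOD (0.445). With a pseudocount of 0.1 or 5 TPM in place of 1, the SPRET difference was 7.45 or 3.74, and that by which SPRET exceeded C57, given below as 2.79, was 4.08 or 1.804. The PWK call was lost without PWK basal replicate 2, where the difference was 0.76 (adjusted p = 0.0798).

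Socs2, the brake on growth hormone signalling, rose from 0.255, 0.483 and 0.319 to 5.19, 4.98 and 4.58 TPM in C57 (2.13 ± 0.12, adjusted p = 3.42e-13). SPRET started near the level that C57 reached, at 4.99, 5.46 and 5.68 TPM, and rose to 24.7, 28.1 and 25.4 TPM (2.08 ± 0.12, 4.29e-13). Socs2 also rose in PWK (0.99 ± 0.14, 5.27e-06) and BALB (0.77 ± 0.12, 2.75e-05), where BALB ended at 0.943, 1.05 and 0.974 TPM. In NOD the basal values of 1.48, 1.14 and 2.19 TPM overlapped the IL-4 values of 1.53, 2.20 and 2.21 TPM, and the difference was 0.20 ± 0.12 (0.209), although it passed at 0.36 without NOD basal replicate 3. Values this close to the pseudocount are compressed: with 0.1 TPM added in place of 1, the C57 difference of Socs2 was 3.50, and with 5 TPM it was 0.89.

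Socs3, the inhibitor of gp130 and G-CSF receptor signalling, was the most abundant member and differed most by strain, not by IL-4. At basal its libraries ran from 24.9 to 25.3 TPM in BALB, 52.7 to 59.8 in C57, 56.4 to 65.9 in NOD, 102 to 110 in PWK and 269 to 280 in SPRET. C57 and NOD overlapped and the other strains did not overlap with any. IL-4 lowered it in SPRET, to 212, 205 and 204 TPM (-0.40 ± 0.06, adjusted p = 2.41e-06), and raised it in BALB, to 32.2, 36.2 and 31.8 TPM (0.40 ± 0.06, 6.65e-06). The rise in PWK (0.29 ± 0.06, 0.00115) was lost with median-ratio scaling, at 0.17 (0.13). C57 and NOD gave 0.06 ± 0.06 (0.442) and 0.04 ± 0.06 (0.59).

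Socs4 to Socs7 were low in this table, between 1.29 and 7.79 TPM, and moved little. Socs6 rose in C57, from 4.31, 3.59 and 4.45 to 7.56, 7.79 and 6.50 TPM (0.70 ± 0.12, adjusted p = 4.31e-05), and Socs5 rose in SPRET, from 3.77, 3.24 and 3.56 to 4.87, 5.88 and 5.66 TPM (0.52 ± 0.11, 0.000557). The groups did not overlap for either gene. The other 5 calls among these 4 genes were small and each hung on single libraries or on the scaling. Socs5 in PWK (0.41) was lost without PWK IL-4 replicate 2 (0.31) and without PWK basal replicate 2 (0.25). Socs6 in NOD (0.31) was lost without NOD IL-4 replicate 1 (0.28) or 2 (0.17) and NOD basal replicate 2 (0.24) or 3 (0.26), and rose to 0.46 without NOD IL-4 replicate 3. Socs7 in NOD (0.26) was lost without NOD IL-4 replicate 1 (0.24) or 3 (0.24) and NOD basal replicate 1 (0.21). In SPRET, Socs6 (0.36) was lost without IL-4 replicate 2 (0.34) or basal replicate 3 (0.33). Socs7 in SPRET (0.25) was lost without IL-4 replicate 1 (0.23) or 3 (0.21) and basal replicate 1 (0.22) or 3 (0.24). With quantile normalization none of these 5 passed, at 0.29, 0.13, 0.08, 0.24 and 0.14.

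Whether a strain responded differently from C57 was tested as the difference between responses. NOD was lower than C57 for Cish by -2.49 ± 0.13 (adjusted p = 5.74e-13), for Socs1 by -3.12 ± 0.28 (7.65e-09) and for Socs2 by -1.93 ± 0.18 (8.18e-09). SPRET was higher for Socs1 by 2.79 ± 0.28 (3.22e-08) and lower for Socs3 by -0.47 ± 0.08 (8.08e-05). In all, 4 members passed in each of the BALB, NOD, PWK and SPRET comparisons, where 15.8%, 33.3%, 22.4% and 33.4% of all genes passed. Socs1 and Socs2 were lower than in C57 in BALB by -1.74 ± 0.28 (0.000104) and -1.36 ± 0.18 (4.33e-06), and in PWK by -1.96 ± 0.30 (3.21e-05) and -1.14 ± 0.19 (7.01e-05). Socs6 was lower in BALB by -0.63 ± 0.17 (0.0111) and in PWK by -0.88 ± 0.18 (0.000877). All 4 comparisons share the C57 libraries, and the median over all genes was -0.07, 0.17, 0.13 and 0.16 for BALB, NOD, PWK and SPRET.

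For Cish, the PWK response was lower than the C57 response by -0.73 ± 0.14 (adjusted p = 0.000588), a call lost with a pseudocount of 0.1 TPM at -0.60 (0.0925). The SPRET response of Cish differed from that of C57 by 0.16 ± 0.13 (0.377), and its direction turned with the pseudocount, from 1.12 with 0.1 TPM to -0.45 with 5 TPM. The same held for Socs2 in SPRET, at -0.05 ± 0.18 (0.861), -1.25 and 0.69. Socs3 responded more in BALB than in C57 by 0.33 ± 0.08 (0.00545). Socs7 passed at 0.40 in NOD and 0.39 in SPRET, and both calls were lost without C57 basal replicate 2, at 0.28 and 0.27. Socs5 passed at 0.52 in SPRET and was lost with median-ratio scaling, at 0.35.

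Levels were also set against C57 within each condition. At basal, 2 members passed in BALB (43.2% of all genes), 5 in NOD (74.2%), 7 in PWK (61.3%) and 7 in SPRET (68.4%). After IL-4, 7 members passed in each of BALB (44.4%), NOD (66.7%), PWK (61.6%) and SPRET (73.4%). The median over all genes was -0.30 in NOD and -0.16 in PWK at basal, and -0.13 in NOD and 0.18 in SPRET after IL-4, and differences are read against these shifts.

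SPRET had the widest basal differences. Socs3 was 2.29 ± 0.06 above C57 on the log2 scale (adjusted p = 1.39e-21, a ratio of mean TPM of 4.94) and Socs2 2.24 ± 0.12 above (2.59e-14, 15.3), while Cish was -1.14 ± 0.09 below (8.09e-11) and Socs1 -1.27 ± 0.20 below (4.14e-06). Adding 0.1 TPM in place of 1 made the Socs1 difference -2.52, and adding 5 TPM made it -0.43. After IL-4, Socs1, Socs2 and Socs3 were above C57 by 1.51 ± 0.20, 2.19 ± 0.12 and 1.82 ± 0.06, and Cish remained below by -0.98 ± 0.09. Markers of neutrophils summed to 106 to 131 TPM in basal C57, 344 to 404 in basal SPRET and 545 to 550 in basal PWK, where Socs3 was also higher (0.92 ± 0.06, 4.01e-12), but to 40.8 to 52.4 in NOD and 53.0 to 60.0 in BALB. In NOD the basal Socs3 difference was 0.12 ± 0.06 (0.057) and did not pass, but it passed at 0.52 with median-ratio scaling and 0.23 with quantile normalization. After IL-4 the neutrophil marker sums were 16.6 to 24.3 TPM in C57, 249 to 274 in SPRET and 543 to 596 in PWK. Of the 6 neutrophil markers, Ly6g and Mpo were under 1 TPM in every library of the table, and the part of such cells in the Socs3 levels was not tested. Mast cell and basophil markers summed to 4.91 to 9.20 TPM in SPRET and 0.118 to 0.361 TPM in C57. Macrophage markers summed to 9344 to 9742 TPM in PWK, 16751 to 23963 in C57 and 26396 to 27882 in SPRET. The part of these cells in the strain differences was not tested either. BALB was the strain with the lowest Socs3, -1.11 ± 0.06 below C57 at basal (2.92e-14) and -0.78 ± 0.06 after IL-4 (2.62e-11), and its basal Cish was -0.51 ± 0.09 below (8.68e-05).

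NOD differed from C57 at basal by more Socs2 (0.93 ± 0.12, adjusted p = 3.03e-07), more Socs4 (1.23 ± 0.11, 2.75e-10) and less Socs5 (-0.85 ± 0.11, 2.8e-07). Socs4 in NOD was at 7.29, 6.91 and 6.38 TPM against 2.09, 2.72 and 2.27 TPM in C57, with no overlap. After IL-4, NOD was below C57 for Cish (-2.61 ± 0.09), Socs1 (-2.53 ± 0.20) and Socs2 (-0.997 ± 0.12). PWK shared the higher Socs4 (0.87 ± 0.12, 1.06e-06) and the lower Socs5 (-0.56 ± 0.13, 0.000429) at basal, and its Socs7 was higher (0.39 ± 0.10, 0.00114). In SPRET, Socs4 and Socs6 were lower at basal, by -0.49 ± 0.11 (0.000313) and -0.60 ± 0.12 (9.3e-05).

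Several basal calls depended on 1 library. Socs1 in NOD (0.59) was lost without C57 basal replicate 3 (0.43) or NOD basal replicate 2 (0.46). Socs6 in NOD (-0.31) was lost without C57 basal replicate 1 (-0.28) or 3 (-0.26) or NOD basal replicate 2 (-0.24) or 3 (-0.26), and stood at 0.01 and 0.07 with median-ratio and quantile scaling. In PWK, Cish (-0.35) was lost without C57 basal replicate 2 (-0.22) or PWK basal replicate 1 (-0.26). Socs1 in PWK (0.60) was lost without C57 basal replicate 1 (0.55) or 3 (0.44) or PWK basal replicate 1 (0.41), and Socs2 in PWK (0.48) without PWK basal replicate 2 (0.26). Socs7 in SPRET (-0.25) was lost without C57 basal replicate 2 (-0.14). After IL-4, Socs6 in BALB (-0.36) was lost without C57 IL-4 replicate 1 (-0.33) or 2 (-0.31) or BALB IL-4 replicate 3 (-0.34).

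**Figure D2:**
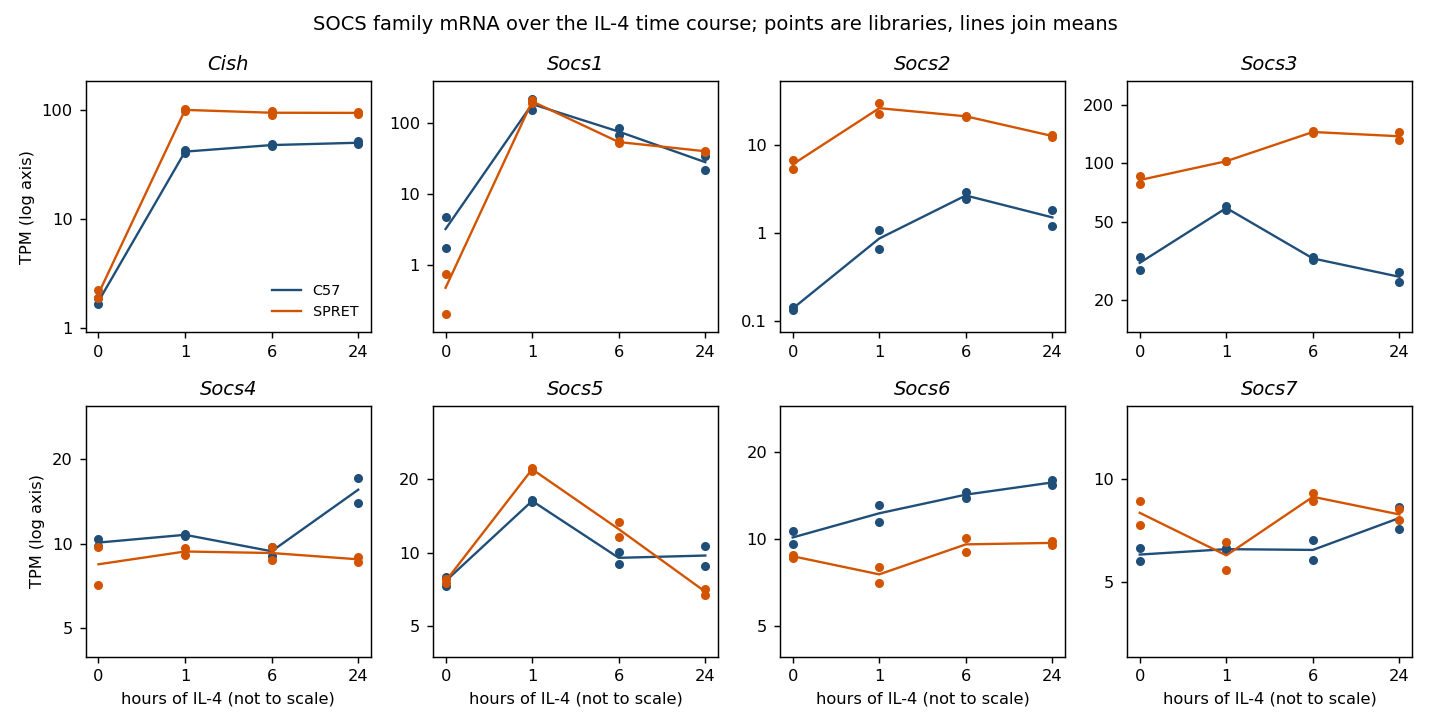
Level of each SOCS family gene in the time-course table, in TPM on log axes, at basal and after 1, 6 and 24 h of IL-4 in C57 (blue) and SPRET (orange), where points are the 2 libraries and lines join group means. Socs1 is highest at 1 h in both strains, at 155 to 220 TPM in C57 and 196 to 214 TPM in SPRET, while Cish stays near its 1 h level to 24 h.

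The time course asked when each member rose. Cish and Socs1 had risen by 1 h in both strains, Socs1 then declined while Cish held its level, and Socs5 rose briefly. At 1 h, 5 of 8 members passed in C57 and 5 in SPRET, all upward, when 3.95% and 8.75% of all genes passed. At 6 h, 4 members passed in C57 (20.4% of all genes) and 5 in SPRET (30.6%), all upward. At 24 h, 8 passed in C57 (39.4%), 7 upward and 1 downward, and 4 in SPRET (36.6%), all upward.

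Socs1 in C57 went from 1.74 and 4.79 TPM at basal to 155 and 220 at 1 h, 68.5 and 85.2 at 6 h, and 22.1 and 34.9 at 24 h. In SPRET it went from 0.207 and 0.763 TPM to 196 and 214 at 1 h, 55.9 and 53.7 at 6 h, and 39.7 and 41.5 at 24 h. The 4 times did not overlap in either strain. The differences from basal in C57 were 5.54 ± 0.31 at 1 h (adjusted p = 2.35e-07), 4.28 ± 0.31 at 6 h (8.96e-07) and 2.85 ± 0.31 at 24 h (1.3e-05). In SPRET they were 7.14 ± 0.31 (1.01e-08), 5.26 ± 0.31 (6.49e-08) and 4.83 ± 0.31 (1.14e-07). The difference in response between the strains passed at 24 h (1.98 ± 0.44, 0.00482). It did not pass at 1 h (1.59 ± 0.44, 0.105) or at 6 h (0.98 ± 0.44, 0.202), and both passed without C57 basal replicate 1, at 2.13 and 1.52.

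Cish in C57 went from 1.86 and 1.64 TPM to 42.9 and 40.6 at 1 h, 48.7 and 47.3 at 6 h, and 48.9 and 51.9 at 24 h. In SPRET it went from 1.88 and 2.25 TPM to 103 and 98.6 at 1 h, 99.3 and 90.9 at 6 h, and 96.7 and 92.9 at 24 h. The strains were close but did not overlap at basal, and lay far apart after IL-4. SPRET responded more at 1 h by 1.10 ± 0.11 (adjusted p = 9.1e-05), at 6 h by 0.82 ± 0.11 (0.000277) and at 24 h by 0.75 ± 0.11 (0.000213). In the 5-strain table, which holds other libraries, Cish was lower in SPRET than in C57 at 24 h.

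Socs2 in C57 was at 0.133 and 0.141 TPM at basal, 1.07 and 0.648 at 1 h, 2.39 and 2.91 at 6 h, and 1.19 and 1.79 at 24 h. In SPRET it was at 6.62 and 5.33 TPM at basal, 29.4 and 22.6 at 1 h, 21.4 and 20.7 at 6 h, and 12.8 and 12.3 at 24 h. The highest values came at 6 h in C57 and at 1 h in SPRET, and every SPRET library was above every C57 library. The C57 rise at 1 h (0.70 ± 0.16, adjusted p = 0.0306) was lost without C57 1 h replicate 1 (0.54) or C57 basal replicate 1 (0.69) or 2 (0.70). At 6 h and 24 h C57 rose by 1.68 ± 0.16 (1.17e-05) and 1.12 ± 0.16 (0.000146), and SPRET rose by 1.95 ± 0.16 (3.6e-06), 1.67 ± 0.16 (6.26e-06) and 0.96 ± 0.16 (0.00048) at the 3 times. The larger SPRET response at 1 h (1.25 ± 0.23, 0.0112) fell to 1.09, 1.07 and 1.11 and was lost without C57 1 h replicate 2, SPRET 1 h replicate 1 or SPRET basal replicate 2, and was 0.12 with a pseudocount of 0.1 TPM. At 6 and 24 h the strains' Socs2 responses differed by -0.01 ± 0.23 (0.985) and -0.16 ± 0.23 (0.659).

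Socs3 in C57 was at 28.7 and 33.3 TPM at basal, 58.0 and 60.3 at 1 h, 32.1 and 33.2 at 6 h, and 24.7 and 27.9 at 24 h. In SPRET it was at 86.4 and 78.1 TPM at basal, 103 and 102 at 1 h, 143 and 147 at 6 h, and 131 and 144 at 24 h. C57 peaked at 1 h (0.91 ± 0.08, adjusted p = 1.45e-05), while SPRET rose later, by 0.81 ± 0.08 at 6 h (7.93e-06) and 0.74 ± 0.08 at 24 h (1.4e-05). The responses differed by 0.73 ± 0.11 at 6 h (0.00116) and 0.97 ± 0.11 at 24 h (5.72e-05), with SPRET higher. At 1 h SPRET was lower by -0.60 ± 0.11 (0.0148), a call lost without C57 1 h replicate 2 (-0.57), C57 basal replicate 1 (-0.49), SPRET 1 h replicate 1 (-0.60) or 2 (-0.59), or SPRET basal replicate 1 (-0.52). The SPRET rise at 1 h (0.32) was lost without SPRET 1 h replicate 1 (0.32) or 2 (0.32) or SPRET basal replicate 2 (0.25), and the C57 fall at 24 h (-0.23) without C57 24 h replicate 1 (-0.14) or C57 basal replicate 2 (-0.12).

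The 24 h direction of Socs3 in SPRET was thus upward in the time course (0.74) and downward in the 5-strain table (-0.40), and the SPRET minus C57 difference in response was 0.97 and -0.47. Basal SPRET libraries were at 86.4 and 78.1 TPM in the time course and at 269 to 280 TPM in the 5-strain table. These values come from different libraries and were set side by side without a test. Neutrophil markers in the time course summed to 67.8 to 73.6 TPM in basal SPRET and 66.2 to 94.2 TPM in basal C57, and to 71.8 to 91.7 and 6.43 to 7.97 TPM at 24 h. Of these 6 markers, Ly6g, S100a9, Mpo and Elane were under 1 TPM in every time-course library. In the 5-strain table only Ly6g and Mpo were, so different genes carried the sums of the 2 tables. Socs3 in basal SPRET was above basal C57 in both tables. Over the time course, mast cell and basophil markers summed to 10.8 to 22.2 TPM in SPRET and 0.18 to 0.582 TPM in C57, dendritic cell markers to 2.53 to 7.83 and 0.132 to 0.776 TPM, and macrophage markers to 40405 to 53850 and 21854 to 32287 TPM. The mast cell and basophil markers Mcpt4, Ms4a2 and Fcer1a were under 1 TPM in every library here, as were the dendritic cell markers Flt3 and Siglech. The part of these cells in the differences between the strains was not tested.

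Socs5 rose at 1 h from 7.95 and 7.32 to 16.4 and 16.2 TPM in C57 (1.00 ± 0.10, adjusted p = 3.41e-05) and from 7.76 and 7.49 to 22.3 and 21.7 TPM in SPRET (1.41 ± 0.10, 5.92e-07). The groups did not overlap. At 6 h SPRET was still up at 11.6 and 13.3 TPM (0.64 ± 0.10, 0.000256), C57 was at 10.0 and 8.99 TPM (0.28 ± 0.10, 0.0584), and by 24 h SPRET had returned to 6.72 and 7.09 TPM. The small C57 rise at 24 h (0.31) was lost without C57 24 h replicate 1 (0.18) or C57 basal replicate 2 (0.25). The lower SPRET response of Socs5 at 24 h (-0.43) was lost without any one of 6 of the 8 libraries compared, all but C57 24 h replicate 2 and C57 basal replicate 1, with values of -0.31 to -0.56 over the 8 fits.

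Socs6 in C57 went from 9.64 and 10.6 TPM to 13.9 and 14.6 at 6 h (0.45 ± 0.09, adjusted p = 0.00313) and 15.3 and 16.0 at 24 h (0.58 ± 0.09, 0.000235), with no overlap. In SPRET it stayed between 7.07 and 10.1 TPM over the course. The lower SPRET response of Socs6 at 24 h (-0.45 ± 0.13, 0.0194) was lost without C57 24 h replicate 2 (-0.42), C57 basal replicate 1 (-0.38) or SPRET 24 h replicate 2 (-0.43). Socs4 in C57 rose at 24 h from 10.3 and 9.81 to 17.1 and 13.9 TPM (0.57 ± 0.13, 0.00303). Socs7 in C57 rose at 24 h by 0.31 ± 0.11 (0.0447), a call lost without C57 24 h replicate 1 (0.21) or C57 basal replicate 1 (0.36) or 2 (0.25). Over the family, the difference in response between SPRET and C57 passed for 3 members at 1 h, 2 at 6 h and 5 at 24 h, when 2.32%, 11.1% and 28.9% of all genes passed.

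**Figure D3:**
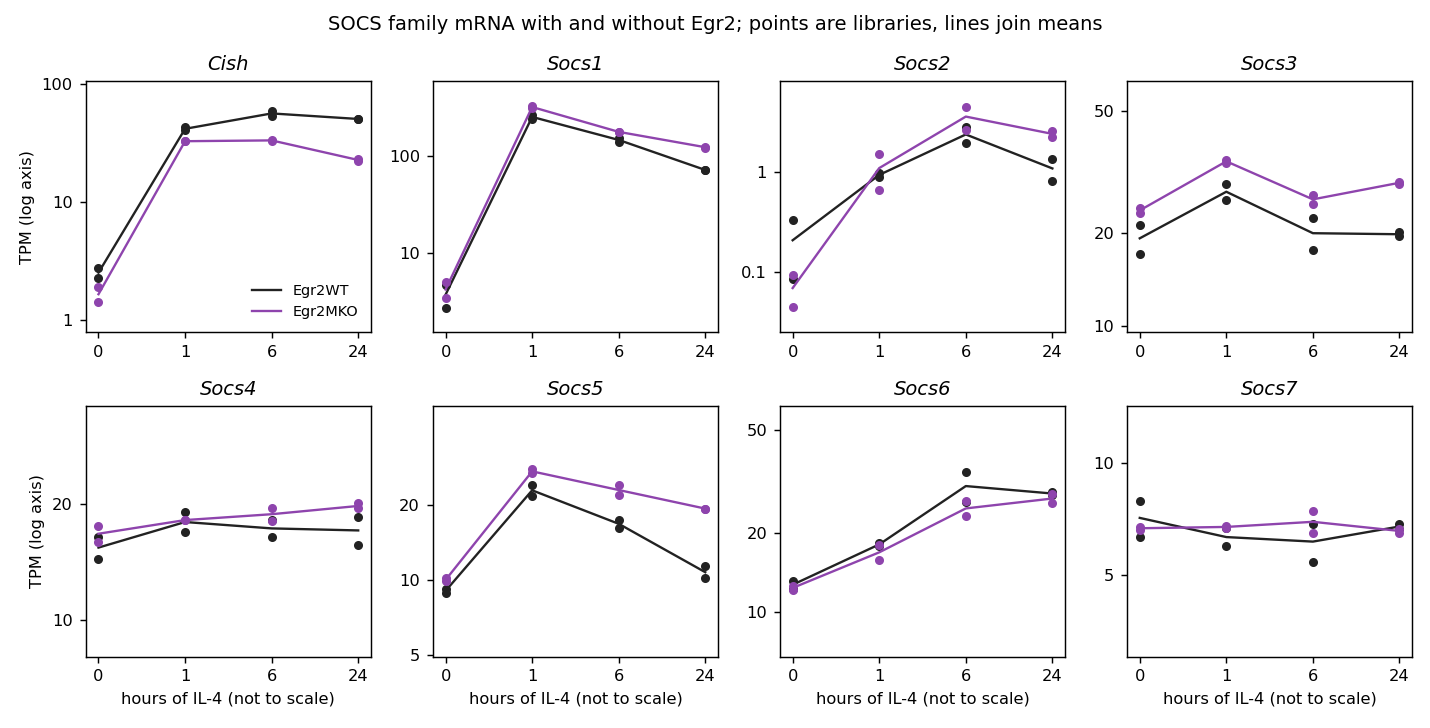
Level of each SOCS family gene in the Egr2 table, in TPM on log axes, at basal and after 1, 6 and 24 h of IL-4 in Egr2WT (black) and Egr2MKO (purple), where points are the 2 libraries and lines join group means. Cish in Egr2MKO lies below Egr2WT, at 23.1 and 22.4 TPM against 50.7 and 50.7 TPM at 24 h, and Socs5 lies above it.

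The Egr2 table compared each member between Egr2WT cells and Egr2MKO cells, which lose the transcription factor EGR2. Egr2WT cells carry no Cre, and the part of Cre in the differences was not tested. Egr2 itself was at 23.6 and 21.3 TPM in basal Egr2WT and at 0.859 and 0.854 TPM in basal Egr2MKO, and at 101 and 99.5 against 4.72 and 7.05 TPM after 24 h of IL-4 (-3.90 ± 0.18, adjusted p = 1.31e-08). In Egr2MKO at 24 h, Cish was lower and Socs1, Socs2, Socs3 and Socs5 were higher, where the median over all genes was 0.12. Of the 8 members, 1 passed at basal (11.5% of all genes), 1 at 1 h (11.4%), 3 at 6 h (20.6%) and 5 at 24 h (37.4%).

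Cish was at 2.77 and 2.28 TPM in basal Egr2WT, 43.2 and 40.5 at 1 h, 53.9 and 59.1 at 6 h and 50.7 and 50.7 at 24 h. In Egr2MKO it was at 1.42 and 1.89 TPM at basal, 32.8 and 32.9 at 1 h, 33.7 and 33.0 at 6 h and 23.1 and 22.4 at 24 h. The genotypes did not overlap at any time. The Egr2MKO minus Egr2WT difference was -0.41 ± 0.09 at basal (adjusted p = 0.0113), -0.34 ± 0.09 at 1 h (0.031), -0.74 ± 0.09 at 6 h (0.000136) and -1.12 ± 0.09 at 24 h (1.53e-06). The basal call was lost without Egr2MKO basal replicate 1 (-0.28) or Egr2WT basal replicate 1 (-0.31). The 1 h call was lost without Egr2MKO 1 h replicate 1 or 2 (-0.34 each) or Egr2WT 1 h replicate 1 (-0.29) or 2 (-0.38). The 6 and 24 h calls held when each library was left out.

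Socs1 at 24 h was at 72.2 and 71.9 TPM in Egr2WT and 125 and 123 TPM in Egr2MKO (0.78 ± 0.17, adjusted p = 0.00308). At 1 h it was at 267 and 245 TPM and at 335 and 313 TPM (0.34 ± 0.17, 0.245). The genotypes did not overlap at either time, but 1 h did not pass. Socs5, at 11.3 and 10.1 TPM in Egr2WT and 19.2 and 19.3 TPM in Egr2MKO at 24 h, was higher by 0.79 ± 0.08 (8.42e-06), and at 6 h by 0.43 ± 0.08 (0.00242). Socs3 at 24 h was at 20.1 and 19.5 TPM and at 29.4 and 28.97 TPM (0.53 ± 0.11, 0.00259). Its 6 h difference (0.36) was lost without Egr2MKO 6 h replicate 1 (0.32) or 2 (0.40) or Egr2WT 6 h replicate 2 (0.20). Socs2 at 24 h was at 0.809 and 1.36 TPM and at 2.24 and 2.57 TPM (0.72 ± 0.26, 0.0449), a call lost without Egr2MKO 24 h replicate 1 (0.79) or 2 (0.65) or Egr2WT 24 h replicate 1 (0.53) or 2 (0.91), and with median-ratio scaling (0.64). Neutrophil markers at 24 h summed to 19.1 to 21.0 TPM in Egr2WT and 10.7 to 16.1 TPM in Egr2MKO. Macrophage markers summed to 16083 to 16300 and 13742 to 14265 TPM, T cell markers to 0.634 to 0.659 and 2.30 to 2.51 TPM, and B cell markers to 1.47 to 1.55 and 3.00 to 5.31 TPM. The part of such cells in these differences was not tested.

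Both genotypes responded to IL-4. In Egr2WT, 5 members rose at each of 1, 6 and 24 h, when 3.24%, 25.5% and 30.3% of all genes passed. In Egr2MKO, 4 rose at 1 h, 5 at 6 h and 5 at 24 h, when 4.13%, 29.8% and 28.0% of all genes passed. Socs1 rose most, by 5.81 ± 0.17 at 1 h in Egr2WT and 6.00 ± 0.17 in Egr2MKO, and Cish rose by 3.61 ± 0.09 and 3.68 ± 0.09. Socs5 rose by 1.25 ± 0.08 and 1.36 ± 0.08 at 1 h and was still up by 0.89 ± 0.08 at 24 h in Egr2MKO (adjusted p = 2.99e-06). Its 24 h rise in Egr2WT (0.22 ± 0.08, 0.049) was lost without Egr2WT 24 h replicate 1 (0.15) or Egr2WT basal replicate 1 (0.25) or 2 (0.20). Socs6 rose from 13.2 and 12.2 to 28.1 and 28.7 TPM over 24 h in Egr2WT (1.10 ± 0.11, 9.51e-06) and from 12.6 and 12.1 to 26.2 and 28.2 TPM in Egr2MKO (1.08 ± 0.11, 1.08e-05).

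Other small calls in this table rested on single libraries. Socs6 in Egr2WT at 1 h (0.48) was lost without any one of the 4 libraries compared (0.43 to 0.53), and so was Socs3 in Egr2MKO at 1 h (0.51, with 0.49 to 0.54). Socs3 in Egr2WT at 1 h (0.49) was lost without Egr2WT 1 h replicate 1 (0.57) or 2 (0.41) or Egr2WT basal replicate 2 (0.34). Socs2 in Egr2WT at 24 h (0.78) was lost without Egr2WT 24 h replicate 2 (0.59) or Egr2WT basal replicate 1 (0.93) or 2 (0.64), and in Egr2MKO it rose by 2.07 ± 0.26 at 6 h (adjusted p = 7.11e-05) and 1.67 ± 0.26 at 24 h (0.000347).

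The difference in response between the genotypes was tested directly. By limma it passed for 0 of 8 members at 1 h (0.0166% of all genes) and 0 at 6 h (1.10%), where 0 and 2 members had an unadjusted p under 0.05. At 24 h it passed for 2 members (12.6%). Cish responded less in Egr2MKO by -0.71 ± 0.13 (adjusted p = 0.00329) and Socs5 responded more by 0.66 ± 0.11 (0.00201), and both calls held when each library was left out. For Socs1 the difference was 0.62 ± 0.23 (0.115), and it passed without Egr2MKO basal replicate 2 (0.84) or Egr2WT basal replicate 1 (0.92). For Socs3 it was 0.24 ± 0.16 (0.389).

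**Figure D4:**
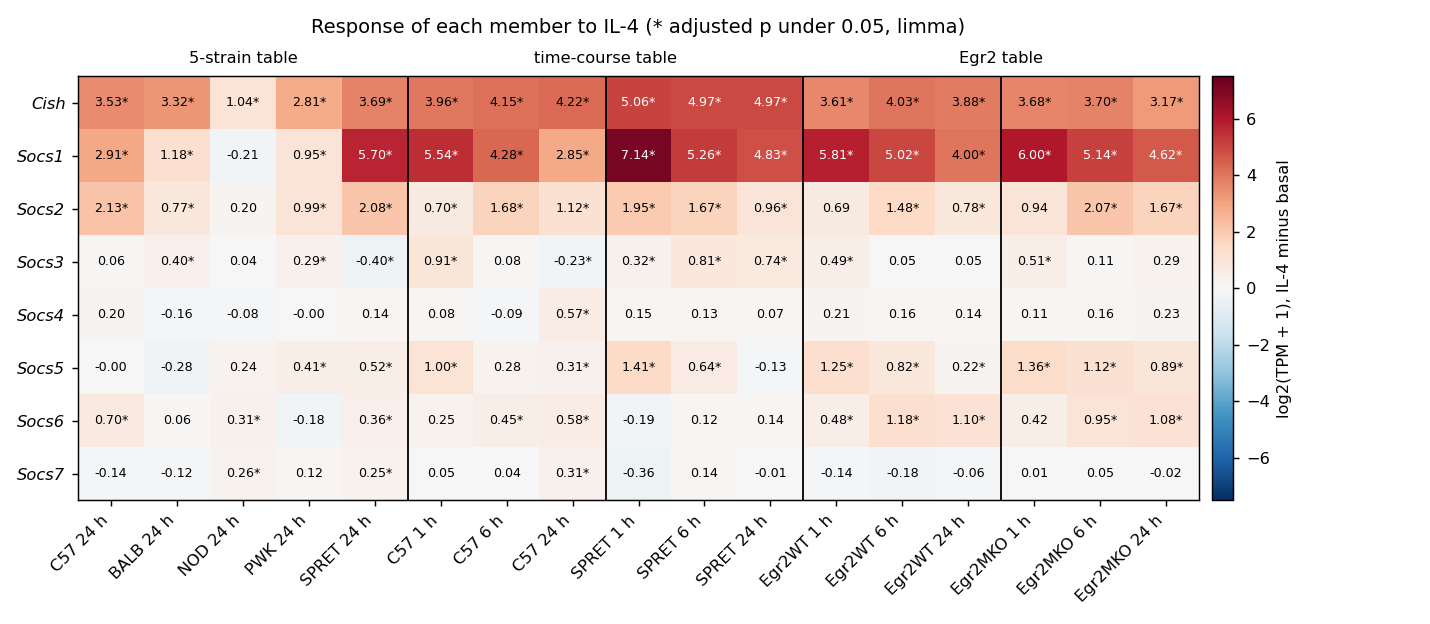
Response of each SOCS family gene to IL-4 as the difference in log2(TPM + 1) from basal, by strain or genotype and time in each of the 3 tables, with stars for an adjusted p under 0.05 from limma. Cish passes in all 17 columns, whereas Socs1 fails only in NOD and reaches 7.14 in SPRET at 1 h.

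**Figure D5:**
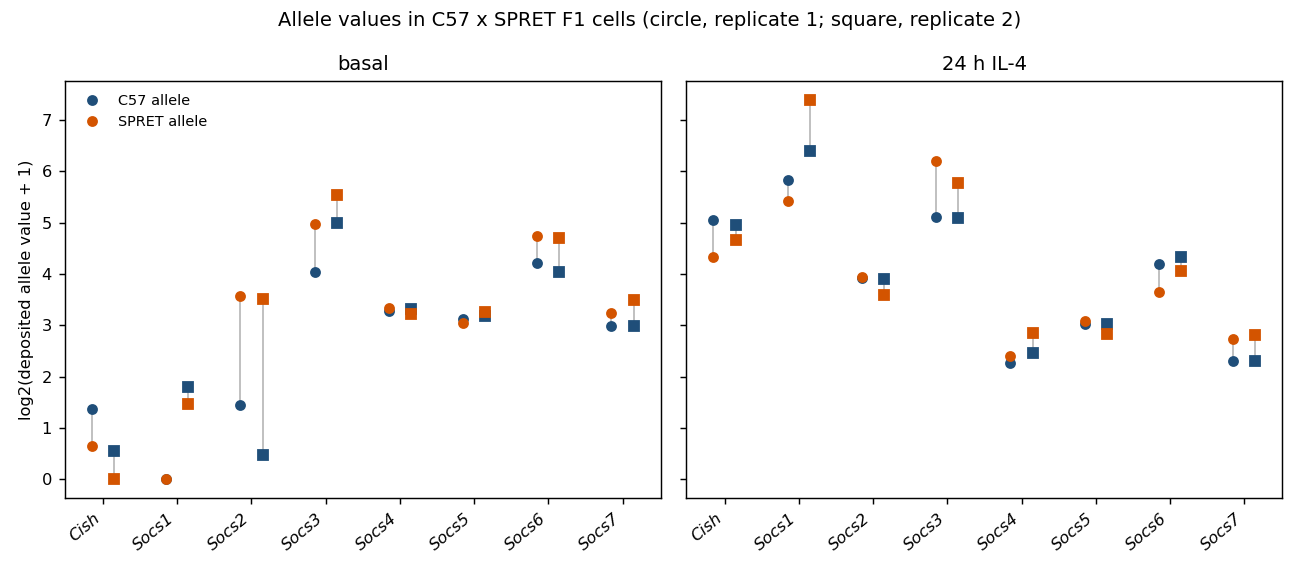
Deposited value of each parental allele, on the log2(value + 1) scale, for the SOCS family genes in C57 x SPRET F1 cells at basal and after 24 h of IL-4, where circles and squares are replicates 1 and 2. The SPRET allele of Socs2 is far above the C57 allele at basal (10.96 against 1.71, and 10.4 against 0.378) and the alleles lie together after IL-4.

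In F1 cells both alleles share one cell, so the allele values compare the 2 copies of a gene in the same surroundings. No test was run on them, their depth is unknown, and they depend on reads that cross a base difference between the parents. In C57 x SPRET cells, Socs2 at basal gave 1.71 and 0.378 for the C57 allele and 10.96 and 10.4 for the SPRET allele. After IL-4 it gave 14.2 and 13.9 for the C57 allele and 14.3 and 11.1 for the SPRET allele. The alleles did not overlap at basal, with a mean log2 ratio of 2.59 (SPRET minus C57 on log2(value + 1)), and overlapped after IL-4, with a mean of -0.15. With 0.1 or 5 added in place of 1, the basal mean was 3.53 or 1.38. The parental strains differed by 2.24 at basal and 2.19 after IL-4 in the 5-strain table, which holds other libraries.

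Socs3 gave more from the SPRET allele in each of the 4 libraries, with 15.3 and 31.0 for C57 against 30.6 and 45.3 for SPRET at basal, and 33.7 and 33.3 against 72.6 and 53.5 after IL-4. The mean log2 ratio was 0.74 at basal and 0.88 after IL-4, beside parental differences of 2.29 and 1.82 in the 5-strain table. In the time course, basal Socs3 was at 86.4 and 78.1 TPM in SPRET and 28.7 and 33.3 TPM in C57. At 24 h of IL-4 it was at 131 and 144 TPM in SPRET and 24.7 and 27.9 TPM in C57. Cish gave more from the C57 allele in each library, 1.59 and 0.468 against 0.565 and 0 at basal, and 32.2 and 30.1 against 19.0 and 24.4 after IL-4. Its mean log2 ratio was -0.64 and -0.51, beside parental differences of -1.14 and -0.98 in the 5-strain table. The basal Cish values were low, and with 0.1 or 5 added in place of 1 the basal mean was -1.93 or -0.19. The parents ran the other way in the time course, where Cish was higher in SPRET than in C57, at 1.88 and 2.25 against 1.86 and 1.64 TPM at basal and at 96.7 and 92.9 against 48.9 and 51.9 TPM at 24 h. Socs1 was listed at 0 for both alleles in 1 basal library and at 2.49 and 1.76 in the other. After IL-4 it gave 56.0 (C57) and 42.1 (SPRET) in 1 library and 83.5 and 167 in the other, so its replicates differed in direction. In the SPRET allele column that held 167, 35.3% of all genes were listed at 0. The other C57 x SPRET columns had 40.3% to 42.8% at 0.

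Among the rest in C57 x SPRET cells, Socs7 gave more from the SPRET allele in each library, with mean log2 ratios of 0.38 at basal and 0.47 after IL-4. Socs6 favoured the SPRET allele at basal (0.60) and the C57 allele after IL-4 (-0.42), in both libraries each time. In the 5-strain table, mean parental Socs6 was 4.12 TPM in C57 and 2.37 in SPRET at basal, opposite to the alleles. After IL-4 it was 7.28 and 3.32 TPM. Mean parental Socs7 was 4.30 and 3.42 TPM at basal, also opposite, and 3.78 and 4.26 TPM after IL-4. In the time course, basal Socs6 was 10.1 TPM in C57 and 8.73 in SPRET, and basal Socs7 was 6.02 and 7.98 TPM. Socs4 and Socs5 had mean ratios between -0.08 and 0.26. The listed gene length equalled the genomic span for 99.5% of genes in the C57 x SPRET table and 11.4% in the C57 x NOD table. The 2 tables thus differ in the lengths listed. Whether the C57 x NOD alleles were weighted in the same way is not given in the sources used here. In C57 x NOD cells, where 78.9% to 83.6% of all genes were listed at 0 in a column, Socs1, Socs2 and Socs6 were listed at 0 throughout. Cish after IL-4 gave 28.4 (C57) and 39.7 (NOD) in 1 library and 91.8 and 37.6 in the other, which went opposite ways.

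Other genes of the pathway were counted from 4 lists. In C57 at 24 h, 35.5% of all genes passed, 15% up and 20.5% down, with a median of -0.04, and the list medians were -0.07, -0.05, -0.0019 and 0.20 in the order below. At 24 h in C57, 5 of the 14 measured genes of the IL-4 receptor and JAK-STAT list passed, 2 up and 3 down, with Stat5a the largest rise (0.66 ± 0.07, adjusted p = 5.49e-08). Among 14 other negative regulators, 3 rose and 5 fell, led by the ubiquitin ligase gene Cblb (1.47 ± 0.09, 3.64e-13), the STAT phosphatase gene Ptpn2 (0.89 ± 0.09, 1.05e-08) and Ptprc (-0.64 ± 0.08, 2.14e-07). Of 6 SOCS-box ubiquitin ligase partners, Elob rose (0.26 ± 0.09, 0.0276) and Rbx1 fell (-0.35 ± 0.06, 4.22e-05). Of 15 other receptors that act through JAK and STAT, 8 rose and 2 fell, with Il6st, which encodes the gp130 chain that SOCS3 binds, rising by 1.71 ± 0.11 (2.83e-12) and Csf3r by 1.57 ± 0.08 (5.34e-14).

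In NOD, 6 of 14 genes of the IL-4 receptor and JAK-STAT list passed at 24 h, all upward, where 34.3% of all genes passed, 28.2% up and 6.07% down. The list median was 0.11 and that of all genes 0.12. Among those that rose were Stat6 (0.39 ± 0.06, adjusted p = 5.6e-05) and Stat5a (0.43 ± 0.07, 6.78e-05). Of the 14 other negative regulators, 5 responded more in NOD than in C57 at 24 h and 2 less. Over all genes, 26% responded more and 7.32% less. The list median was 0.24 and that of all genes 0.17. The 2 with lower responses were Cblb and Ptpn2, by -1.12 ± 0.12 (1.39e-07) and -0.93 ± 0.13 (4.28e-06). In SPRET at 24 h, 4 of 14 genes of the IL-4 receptor and JAK-STAT list rose and 4 fell, with a median of -0.03. Of 14 other negative regulators, 3 rose and 4 fell, with a median of 0.04. Over all genes, 31.4% rose and 12.9% fell. Il4ra fell from 78.7 to 45.6 TPM (means, n = 3 per group, -0.77 ± 0.06, limma adjusted p = 4.82e-11), and Ptpn2 rose by 0.73 ± 0.09 (2.76e-07). Of the 6 SOCS-box partners 4 rose, led by Cul5 (0.32 ± 0.08, 0.00142) and Rbx1 (0.29 ± 0.06, 0.000241). The median of those 6 was 0.23, and that of all genes 0.11. At 1 h, Jak2 was the member of the IL-4 receptor list that rose in C57 (0.56 ± 0.07, 0.000527), and in SPRET Jak2 (0.89 ± 0.07, 3.6e-06) and Irs2 (1.32 ± 0.18, 0.000356) rose. In Egr2MKO at 24 h of IL-4, Il4ra was 1.21 ± 0.06 above Egr2WT (1.27e-08), Il13ra1 was -1.39 ± 0.12 below (2.44e-06) and Cblb was 0.58 ± 0.06 above (9.83e-06).

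Patterns across libraries are given as descriptions, since the libraries share strains and treatments. Over the 29 libraries of the 5-strain table, the genes whose log2(TPM + 1) followed Cish most closely were Il4i1, an IL-4-induced amino acid oxidase (r = 0.94), Gm21948 (0.94) and Rbp4 (0.93), and those that followed Socs1 were Ccl24, Batf3 and Ust (0.92, 0.90 and 0.89). For Socs2 they were Timp1, Nolc1 and Scimp (0.96, 0.93 and 0.93), and for Socs3 Adrm1, Nxt1 and Rps6 (0.97, 0.96 and 0.95). Over the 16 time-course libraries, Cish went with Rnf19b, Batf3 and Irf4 (0.97, 0.95 and 0.93), Socs1 with Nfil3, Ado and Rbbp6 (0.94, 0.92 and 0.91), Socs2 with B3gnt7, Gpr183 and Jak2 (0.99, 0.98 and 0.98) and Socs3 with Epb41l2, Pank3 and Rac1 (each 0.96). Within the family, Cish and Socs1 had r = 0.81 over the 5-strain libraries and 0.87 over the time course.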

How the data were processed

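RNA-seq tables of mouse BMDMs were used, with 61 libraries in 3 expression tables and 8 in 2 F1 tables, of 69 samples in all. A human table was not analysed here. The authors aligned reads with STAR 2.5.3 to genomes of each strain built with MMARGE 1.0, moved coordinates to mm10 and deposited TPM per gene from HOMER 4.11.1, counted over exons. A TPM of a gene therefore depends on how well reads align to that strain's genome. The F1 columns are deposited as TPM per allele. For C57 x SPRET, the methods describe weighting of expression by the ratio of reads that overlap mutations, times 10, so a gene with few such reads is poorly measured. For C57 x NOD the paper speaks of the same strategy, but its methods do not describe the weighting. The listed gene length equalled the genomic span, within 1 base, for 99.5% of genes in the C57 x SPRET table and 11.4% in the C57 x NOD table. The tables also carry the authors' DESeq2 comparisons, which were not used. Samples were grouped by their GEO labels.

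The TPM were turned into log2(TPM + 1), genes that reached 1 TPM in 2 or more libraries of a table were kept, and 1 model of group means per table was fitted with limma 3.58.1 in R 4.3.3 (empirical Bayes with trend, 2-sided, Benjamini-Hochberg over all genes tested). The fit was tested on simulated data. Fold changes of genes near 1 TPM are understated on this scale. In the Egr2 and time-course tables each group has 2 libraries, and leaving 1 out assumes that the lone library varies like the other groups. Alternatives were pseudocounts of 0.1 and 5 TPM, no filter or a filter of 5 TPM, median-ratio and quantile scaling, only the groups compared, a robust prior, no trend, a replicate block and each library left out.

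Named were all 8 members, from each of 4 pathway lists at most 2 genes per direction and comparison with the largest differences that passed, and the 3 genes most like each of Cish, Socs1, Socs2 and Socs3. One gene that the rule names is not reported here. The members, lists and tests were chosen with earlier results of these data known. The labels do not say whether replicate numbers pair the libraries. Deviations of same-numbered libraries from their group means correlated at 0.0134, 0.0305 and -0.0046 on average in the 3 tables. Single pairs ran from -0.1343 to 0.333 in the 5-strain table and from -0.1429 to 0.266 in the time course. In the Egr2 table they ran from -0.139 to 0.0565. The averages also cover pairs from different strains or genotypes, so they cannot exclude pairing within a strain or genotype. Figures were drawn with matplotlib 3.10.9.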

Additional observations from a re-analysis of the deposited data

Results flagged for a closer look

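The difference in the IL-4 response between a strain or genotype and its reference passed the limma test, after Benjamini-Hochberg adjustment over all genes, for the members below, and this direct test of the difference is what singled them out. All values are differences of log2 responses, and the comparisons of one table share their reference libraries.

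At 24 h in the 5-strain table, the BALB minus C57 difference was -1.74 for Socs1, -1.36 for Socs2, 0.33 for Socs3 and -0.63 for Socs6. The NOD minus C57 difference was -2.49 for Cish, -3.12 for Socs1, -1.93 for Socs2 and 0.40 for Socs7. The PWK minus C57 difference was -0.73 for Cish, -1.96 for Socs1, -1.14 for Socs2 and -0.88 for Socs6. The SPRET minus C57 difference was 2.79 for Socs1, -0.47 for Socs3, 0.52 for Socs5 and 0.39 for Socs7. Both Socs7 differences were lost without C57 basal replicate 2, at 0.28 in NOD and 0.27 in SPRET.

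In the time course, the SPRET minus C57 difference at 1 h was 1.10 for Cish, 1.25 for Socs2 and -0.60 for Socs3. At 6 h it was 0.82 for Cish and 0.73 for Socs3. At 24 h it was 0.75 for Cish, 1.98 for Socs1, 0.97 for Socs3, -0.43 for Socs5 and -0.45 for Socs6. The Socs3 difference at 24 h thus had opposite signs in the 2 tables, 0.97 here and -0.47 in the 5-strain table, and the cause was not tested. With each library left out in turn, the Socs2 difference at 1 h ranged from 1.07 to 1.43, and the call was lost without C57 1 h replicate 2, SPRET 1 h replicate 1 or SPRET basal replicate 2. The Socs3 difference at 1 h ranged from -0.70 to -0.49, and the call was lost without C57 1 h replicate 2, C57 basal replicate 1, SPRET basal replicate 1 or either SPRET 1 h library. The Socs5 difference at 24 h ranged from -0.56 to -0.31, and the call was lost without C57 24 h replicate 1, C57 basal replicate 2 or any of the 4 SPRET basal and 24 h libraries. The Socs6 difference at 24 h ranged from -0.51 to -0.38, and the call was lost without C57 24 h replicate 2, C57 basal replicate 1 or SPRET 24 h replicate 2.

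The Egr2MKO minus Egr2WT difference at 24 h was -0.71 for Cish and 0.66 for Socs5.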

How the results depend on the processing

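Member calls were counted over 9 families of comparisons. With a pseudocount of 5 TPM, the Egr2MKO minus Egr2WT difference in response passed for 4 members in place of 2; the other 8 counts stayed within 1.5 times of their value under each setting run, the furthest being the basal strain differences, 14 in place of 21 when only the groups compared were fitted. With each library left out, the Egr2MKO minus Egr2WT response count was 2 to 3. Directions turned with the pseudocount of 5 TPM for the SPRET minus C57 response of Cish at 24 h (-0.45), of Socs2 at 24 h (0.69) and, in the time course, of Socs2 at 6 h (0.68). They turned for NOD minus C57 at basal for Socs6, to 0.0102 with median-ratio scaling and 0.0736 with quantile normalization, and for Cish, to 0.25 with quantile normalization. Cish, Socs1 and Socs2 have values near or below 1 TPM at basal in some strains, where the pseudocount sets the size of the difference. Over the 8 members, leaving out 1 library ended a call in 94 of the fits, added one in 22 and left 1764 on the same side.

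The labels did not say what a replicate number marks. A fit with the replicate block changed 5 calls. It added Socs6 in BALB minus C57 at basal (0.28) and Socs1 in the SPRET minus C57 response at 1 h (1.59). It lost Socs7 in C57 at 24 h of the time course (0.31, limma adjusted p = 0.0547), Socs2 in Egr2MKO minus Egr2WT at 24 h (0.72, 0.0577) and Socs5 in Egr2WT at 24 h (0.22, 0.0636). Groups of 2 libraries and levels of a few TPM limit the smaller differences of Socs4, Socs5, Socs6 and Socs7.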

Other observations

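In C57 x NOD F1 cells, Socs4 at basal was at 48.9 (C57 allele) and 35.5 (NOD allele) in 1 library and 48.6 and 42.9 in the other. After IL-4 it was at 41.0 and 4.30 in 1 library and 57.7 and 74.9 in the other, which differed in direction. Socs3 in these cells was listed at 3.12 for the NOD allele in 1 basal library and at 2.85 (C57) and 2.96 (NOD) in 1 IL-4 library, and at 0 in the other columns.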
